A study of Mus musculus with 24 samples.

Results

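Gene expression was followed through mid G1 in mouse embryonic fibroblasts (MEF), primary fibroblasts grown from mouse embryos and used here at early passage, by setting the arrays taken 8 and 10 h after serum refeeding against those taken at 4 and 6 h. The comparison used 4 of the 24 arrays of the series, 2 in each window, and the members were chosen by collection time alone. All cells except the unsynchronised ones had been held in low serum for 48 h, which stops fibroblasts in a quiescent state, and were then given medium with 10% foetal calf serum at 0 h. The remaining arrays were 2 of unsynchronised cells, 2 each at 0, 12, 18 and 24 h, and 1 at each other time up to 30 h. Each of the 4 times compared was measured on 1 array, so the difference between the 2 arrays of a window holds both time and error. It entered a spread that each gene had in common over all groups, to which the duplicated groups also contributed.

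Serum restarts a quiescent fibroblast in a fixed order. Immediate early genes are switched on first, growth factors, cytokines and feedback inhibitors of the growth factor pathway follow, and D-type cyclins with their kinases then phosphorylate the retinoblastoma family proteins, which releases E2F transcription factors. E2F factors drive genes for cyclin E, for the loading of the MCM helicase on replication origins (licensing) and for the synthesis of DNA, so that they are known to be raised in late G1, before S phase starts.

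Values are deposited microarray intensities on a linear scale, and changes are log2 differences between window means, with the standard error (SE) from limma. The 4 h array stood apart from its neighbours. The median log2 level over the 9967 genes tested was 6.484 and 6.448 at 8 and 10 h, against 6.315 and 6.433 at 4 and 6 h, and of the 24 arrays only that of 26 h had a lower one. Within the windows the SD between the 2 arrays was 0.233 for 8 and 10 h and 0.309 for 4 and 6 h, against 0.151 to 0.286 for the 5 pairs of duplicates. The median change over all genes was 0.094 and 63.9% of genes had a positive change, so every gene list below is read against that shift. All 15 fibroblast markers tested, collagens and Pdgfra among them, were at 20 or more on all 4 arrays. Of 19 macrophage and leukocyte markers 12 also reached 20, the macrophage genes Cd68, Csf1r and C1qa among them, and their list summed to 1819 and 1884 at 8 and 10 h, against 2214 and 2245 at 4 and 6 h, while the general leukocyte gene Ptprc and the lymphocyte genes Cd3e and Cd79a stayed below 20. Markers of other cell types reached 20 on at least 1 of the 4 arrays in part. These were 6 of 18 for adipocytes and cartilage (summing to 716 and 587 at 8 and 10 h, against 943 and 729.5 at 4 and 6 h) and 4 of 11 for endothelial cells, Cdh5, Kdr, Flt1 and Eng (818 and 561 at 8 and 10 h, against 470.5 and 669.6 at 4 and 6 h). They were also 3 of 10 for epithelial cells (87.7 and 84.2 at 8 and 10 h, against 105.3 and 103.4 at 4 and 6 h), 3 of 13 for muscle (241.9 and 247 at 8 and 10 h, against 212.9 and 272.7 at 4 and 6 h) and 3 of 10 for neural cells (223 and 261.5 at 8 and 10 h, against 129.2 and 249.7 at 4 and 6 h). Adipoq, Acan, Pecam1, Epcam, Myod1 and Gfap were among those below 20 on all 4, no marker of any of these lists passed the test, and their part in the results was not tested. Since these are bulk cultures, fewer cells expressing a gene and less of its RNA per cell cannot be told apart.

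At 8 to 10 h 35 genes were higher than at 4 to 6 h and 11 were lower (limma, two-sided, Benjamini-Hochberg adjusted p under 0.05 over all genes). These were 0.351% and 0.11% of the genes tested, and at an unadjusted p under 0.05 there were 1233 higher (12.4%) and 480 lower (4.82%). The genes that rose included 4 of the list of origin licensing and the replicative helicase, Cdc6, Wdhd1, Mcm2 and Mcm4, and 4 of that of DNA synthesis, Prim1, Dck, Dut and Rfc1. Those that fell included the secreted growth factors Pdgfb and Fgf18 and the cytokine Il1a. The rises ran from 0.77 to 1.701 on the log2 scale, the falls were between -2.47 and -1.06, and 20 of the 35 rises and all 11 falls were at least 2-fold. In each of the 46 genes both arrays of 1 window lay outside both of the other, which was also so for 27.2% of all genes in the upward direction and 13.2% in the downward direction. Values moved the same way at every step from 4 to 10 h in 22 of the 35 and 8 of the 11. The direction from 6 to 8 h was fixed by the separation of the windows, and the share over all genes was not counted. From 0 h to 4 to 6 h, 32 of the 35 had gone down and all 11 up. Of these, 17 and 10 passed the test. That step shares the 4 and 6 h arrays with the choice of the genes, and its share over all genes was not counted. At 8 to 10 h 17 of the 35 were above 0 h, 2 below and 16 not past the test. Of the 11, 5 were above, 1 below and 5 not past it. Over all genes 16.4% were above and 14.3% below.

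The number of genes past the test changed with how the spread was measured and with which arrays were used. It was 0 in both directions without the 4 h array, where limma gave 842 genes higher and 432 lower at an unadjusted p under 0.05, and 0 without the 10 h array, with 1013 and 279. Without the 6 h array it was 730 higher and 208 lower, and without the 8 h array 47 and 37. Leaving out 1 array of a duplicated group, which bears on the windows only through the shared spread, gave 9 and 5 for unsynchronised cells, 20 and 8 for 0 h, 21 and 5 for 12 h, 9 and 3 for 18 h and 18 and 5 for 24 h. When each time had its own mean and the spread came from the 5 pairs of duplicates, 300 genes were higher (3.01%) and 124 lower (1.24%), the same 46 genes among them. The log2 changes of that fit are those of the main one with another spread, so finding the 46 again adds no support. Centring each array on its median changed the split from 76.1% to 46% higher, with 23 genes higher and 27 lower. An exact permutation test of 2 arrays against 2 cannot give a two-sided p below 0.3333.

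**Figure D1:**
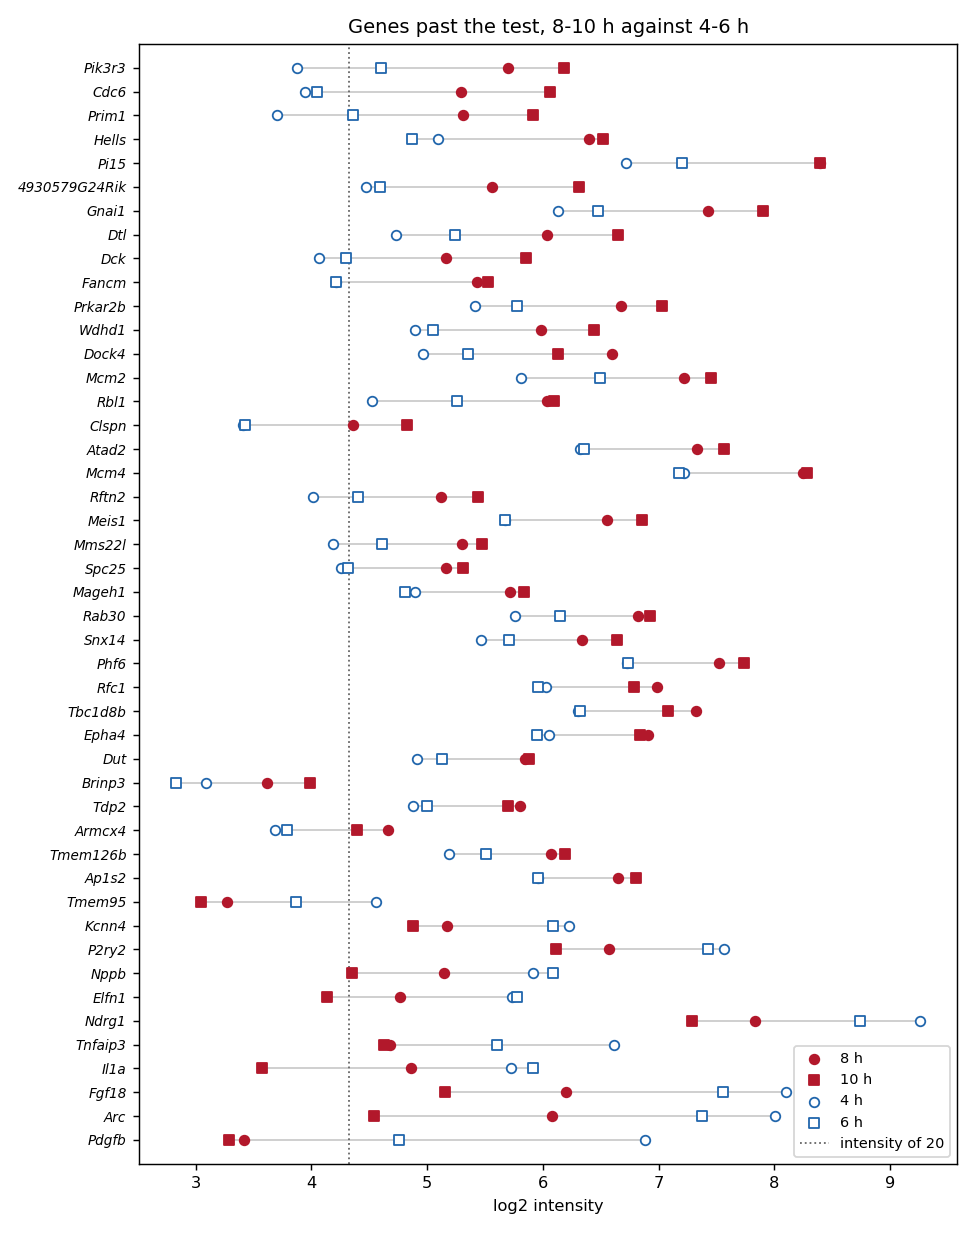
Log2 intensity of the 46 genes past the test on the 8 and 10 h arrays (filled red) and the 4 and 6 h arrays (open blue), with genes ordered by log2 change and the dotted line at an intensity of 20. In every gene the filled and open symbols are apart, and several genes have values left of the line in 1 window.

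Of the genes that load and fire replication origins 4 rose by 8 to 10 h. Cdc6, which with Cdt1 loads the MCM helicase onto origins, had the largest rise of this group, with intensities of 39.2 and 66.9 at 8 and 10 h, against 15.4 and 16.6 at 4 and 6 h (log2 change 1.68 ± 0.26, adjusted p = 0.0241). Both early values lay below 20, the minimum intensity used here, and both later ones were at least 2 times as high. Mcm4, a subunit of the helicase, gave 304 and 312 at 8 and 10 h, against 149 and 144 at 4 and 6 h (log2 change 1.07 ± 0.16, adjusted p = 0.0213). Mcm2, another subunit, gave 149.5 and 176 at 8 and 10 h, against 56.3 and 90.2 at 4 and 6 h (log2 change 1.19 ± 0.22, adjusted p = 0.0413). Mcm4 was flat within each window, whereas Mcm2 differed between 4 and 6 h by more than between 8 and 10 h.

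The remaining 4 subunits of the hexamer were above both early arrays in both later ones but did not pass the test at the adjusted level. Mcm5 gave 124 and 178 at 8 and 10 h, against 38.8 and 85.1 at 4 and 6 h (log2 change 1.37 ± 0.30, adjusted p = 0.0592), and Mcm3 134 and 172 at 8 and 10 h, against 47.6 and 81.2 at 4 and 6 h (log2 change 1.29 ± 0.26, adjusted p = 0.0518). Mcm6 gave 223 and 244 at 8 and 10 h, against 123 and 146 at 4 and 6 h (log2 change 0.80 ± 0.16, adjusted p = 0.0506), and Mcm7 127 and 190.4 at 8 and 10 h, against 72.1 and 99.2 at 4 and 6 h (log2 change 0.88 ± 0.22, adjusted p = 0.0788). In each of these 4 the 6 h value was above the 4 h value. With each time given its own mean, limma called all 6 subunits higher, against 3.01% of all genes.

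Around the helicase, Wdhd1, which links it to DNA polymerase alpha, gave 63.1 and 86.9 at 8 and 10 h, against 29.7 and 33.05 at 4 and 6 h (log2 change 1.24 ± 0.24, adjusted p = 0.043). Dtl, a substrate receptor of the ubiquitin ligase that degrades Cdt1 in S phase, gave 65.8 and 100.2 at 8 and 10 h, against 26.5 and 37.9 at 4 and 6 h (log2 change 1.36 ± 0.23, adjusted p = 0.0309). Clspn, the adaptor that activates the checkpoint kinase Chek1 at stalled forks, gave 20.5 and 28.4 at 8 and 10 h, against 10.6 and 10.7 at 4 and 6 h (log2 change 1.18 ± 0.21, adjusted p = 0.039), so that both early values were below 20. Of the 28 tested genes of origin licensing and the replicative helicase, 4 rose and 22 were above both early arrays on both later ones, against 27.2% of all genes. Relative to starved cells at 0 h the list median was -0.29 at 4 to 6 h and 0.35 at 8 to 10 h. At 8 to 10 h 12 members were higher than at 0 h and none lower, against 16.4% and 14.3% of all genes. Between the windows every member had a positive change, and their median was 0.62, against 0.094 over all genes. Without the 4 h array none passed and the median was 0.60, and without the 10 h array none passed and it was 0.49.

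Promoters are shown for the 3 genes that rose and held an E2F motif within 250 bases before to 50 after the RefSeq start (GRCm38.p6), with the motif in capitals. The motif searched was TTTCCCGC or TTTGGCGC on either strand.
Cdc6 promoter, chr11:98907901-98908200, plus strand: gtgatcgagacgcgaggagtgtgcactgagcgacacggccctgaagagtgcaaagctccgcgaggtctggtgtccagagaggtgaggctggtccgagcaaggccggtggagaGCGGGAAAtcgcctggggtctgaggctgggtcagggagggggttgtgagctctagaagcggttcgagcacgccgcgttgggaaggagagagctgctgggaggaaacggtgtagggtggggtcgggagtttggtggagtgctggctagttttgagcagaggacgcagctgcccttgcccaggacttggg
Hells promoter, chr19:38930740-38931039, plus strand: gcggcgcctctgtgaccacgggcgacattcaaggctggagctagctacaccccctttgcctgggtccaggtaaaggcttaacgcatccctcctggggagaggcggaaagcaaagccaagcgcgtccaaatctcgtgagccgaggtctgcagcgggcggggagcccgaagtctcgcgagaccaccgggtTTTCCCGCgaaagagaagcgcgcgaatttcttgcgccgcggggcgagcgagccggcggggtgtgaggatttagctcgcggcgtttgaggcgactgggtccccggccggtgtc
Dtl promoter, chr1:191575495-191575794, minus strand: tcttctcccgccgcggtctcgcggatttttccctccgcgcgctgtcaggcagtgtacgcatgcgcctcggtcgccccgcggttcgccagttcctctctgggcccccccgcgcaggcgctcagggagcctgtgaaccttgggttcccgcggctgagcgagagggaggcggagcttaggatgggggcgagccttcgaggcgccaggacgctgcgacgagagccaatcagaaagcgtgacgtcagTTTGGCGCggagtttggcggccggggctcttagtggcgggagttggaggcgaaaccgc
The match lay 138 bases before the start in Cdc6, on the strand opposite to the gene, 62 before it in Hells and 8 before it in Dtl. Of the 33 windows of the 28 risen genes with a RefSeq window, 9.09% held such a motif, against 2.94% of all 10077 windows of the genes tested. The letters CCAAT, bound by the factor NF-Y and overlapping neither E2F motif, stood in 57.6% of the windows of risen genes and in 37.2% of all windows. A match of letters is a description of the window only.

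Of the genes that make DNA and its precursors 4 rose, and most did not pass. Prim1, the catalytic subunit of the primase that starts each new DNA strand, gave 39.8 and 60.5 at 8 and 10 h, against 13.04 and 20.5 at 4 and 6 h (log2 change 1.59 ± 0.30, adjusted p = 0.043). Dck, a kinase that salvages deoxycytidine, gave 35.8 and 57.8 at 8 and 10 h, against 16.7 and 19.7 at 4 and 6 h (log2 change 1.33 ± 0.25, adjusted p = 0.043). Dut, which removes dUTP, gave 57.4 and 58.9 at 8 and 10 h, against 30.1 and 35.01 at 4 and 6 h (log2 change 0.84 ± 0.16, adjusted p = 0.043). The 8 and 10 h values of Prim1 and Dck were apart, with 10 h higher, and those of Dut were nearly alike. Rfc1, the large subunit of the complex that loads the PCNA clamp, gave 127 and 110.3 at 8 and 10 h, against 65.2 and 62.1 at 4 and 6 h (log2 change 0.90 ± 0.17, adjusted p = 0.043). The polymerase subunits Pola1 (log2 change 0.95 ± 0.21, adjusted p = 0.0575) and Pole (log2 change 1.05 ± 0.25, adjusted p = 0.0702) did not pass. Of 35 tested genes of DNA polymerases, PCNA and deoxynucleotide synthesis, 4 rose and 26 were above both early arrays. Over all genes these shares were 0.351% and 27.2%. After centring each array on its median 1 member rose. Relative to starved cells at 0 h the list median was -0.44 at 4 to 6 h and 0.18 at 8 to 10 h. At 8 to 10 h 5 members were higher than at 0 h and 2 lower, against 16.4% and 14.3% of all genes. The median change of the list between the windows was 0.63, against 0.094 over all genes. That median was 0.45 without the 4 h array and 0.44 without the 10 h array, and no member passed in either case.

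Genes of chromatin and DNA repair were among the 35, outside both replication lists. Hells, a chromatin remodeller needed for DNA methylation, gave 84.2 and 91.9 at 8 and 10 h, against 34.2 and 29.2 at 4 and 6 h (log2 change 1.48 ± 0.20, adjusted p = 0.0182), a level 2.79 times as high. Fancm, a helicase of the Fanconi anaemia repair pathway, gave 43.3 and 45.95 at 8 and 10 h, against 18.5 and 18.6 at 4 and 6 h (log2 change 1.27 ± 0.17, adjusted p = 0.0182), with both pairs close together. Atad2, a bromodomain ATPase and E2F partner, gave 161 and 189 at 8 and 10 h, against 79.8 and 81.8 at 4 and 6 h (log2 change 1.11 ± 0.20, adjusted p = 0.0363). In all 3 the windows were separated by more than the difference within either, which their choice by the test favours. Mms22l, which with Tonsl repairs broken forks, gave 39.4 and 44.5 at 8 and 10 h, against 18.2 and 24.4 at 4 and 6 h (log2 change 0.99 ± 0.18, adjusted p = 0.0413). Tdp2, which removes topoisomerase II from DNA ends, gave 55.9 and 51.8 at 8 and 10 h, against 29.3 and 32.05 at 4 and 6 h (log2 change 0.81 ± 0.16, adjusted p = 0.048).

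Of the 296 tested genes that the study assigned to S phase, 16 rose and none fell, against 0.351% and 0.11% of all genes. Above both early arrays were 193, against 27.2% of all genes, and the median change was 0.40, against 0.094. Of its 239 tested G2-M genes 1 rose, 118 were above both early arrays and the median was 0.28. Without the 4 h or the 10 h array none of either list passed, and without the 6 h array 77 S and 38 G2-M genes did. The phases were assigned on human fibroblasts, but the choice of genes drew on this series too, so the direction of these lists is not independent evidence. Of the 35 risen genes 18 were in neither of these lists nor in any other.

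Among regulators of the G1 to S transition 1 gene passed. Rbl1, the retinoblastoma family protein p107 and itself an E2F target, rose, with 65.6 and 68.6 at 8 and 10 h, against 22.98 and 38.3 at 4 and 6 h (log2 change 1.18 ± 0.23, adjusted p = 0.0477). Ccne1, cyclin E1, which activates Cdk2 at the end of G1, gave 115 and 217 at 8 and 10 h, against 74.5 and 74.5 at 4 and 6 h (log2 change 1.08 ± 0.24, adjusted p = 0.0575). Its 4 and 6 h values were alike and its 10 h value was the highest of the 4, but it did not pass. Ccnd1, cyclin D1, the serum-induced partner of Cdk4 and Cdk6, gave 609 and 658 at 8 and 10 h, against 412 and 557 at 4 and 6 h (log2 change 0.40 ± 0.18, adjusted p = 0.282). Of the 14 tested genes of D and E cyclins, their kinases and the retinoblastoma family, Rbl1 alone passed. Above both early arrays were 9, against 27.2% of all genes, and the median change was 0.30. Ccne2 was not analysed here.

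Among the E2F factors themselves, the activator E2f1 gave 48.5 and 69.5 at 8 and 10 h, against 33.5 and 48.1 at 4 and 6 h (log2 change 0.53 ± 0.21, adjusted p = 0.227), and E2f6, a repressor that does not bind retinoblastoma proteins, gave 130.1 and 136 at 8 and 10 h, against 74.7 and 85.6 at 4 and 6 h (log2 change 0.73 ± 0.15, adjusted p = 0.0565). E2f4, a repressor of quiescent cells, gave 252 and 287 at 8 and 10 h, against 318 and 373 at 4 and 6 h (log2 change -0.36 ± 0.18, adjusted p = 0.33). None of the 9 E2F and DP genes tested passed. The inhibitor genes were likewise below the threshold. Cdkn1a, which encodes p21, gave 1506 and 1883 at 8 and 10 h, against 1560.2 and 1913 at 4 and 6 h (log2 change -0.037 ± 0.17, adjusted p = 0.937), so that the windows overlapped. Cdkn1b, which encodes p27, gave 56.1 and 60.96 at 8 and 10 h, against 44.5 and 46.6 at 4 and 6 h (log2 change 0.36 ± 0.20, adjusted p = 0.368).

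Myc, a serum-induced transcription factor of growth, gave 349 and 359 at 8 and 10 h, against 497 and 569.9 at 4 and 6 h (log2 change -0.59 ± 0.18, adjusted p = 0.135), below both early arrays but not past the test. Cdc25a, the phosphatase that activates Cdk2, gave 129 and 135 at 8 and 10 h, against 123 and 81.98 at 4 and 6 h (log2 change 0.39 ± 0.20, adjusted p = 0.337), with 42.9 on average in starved cells at 0 h. Its level at 8 to 10 h was above that at 0 h (limma log2 change 1.62, adjusted p = 9.27e-05). Cdk1, the kinase of mitosis, gave 95.3 and 109.8 at 8 and 10 h, against 73.1 and 73.8 at 4 and 6 h (log2 change 0.48 ± 0.16, adjusted p = 0.161), and its partner Ccnb1 55.7 and 69.4 at 8 and 10 h, against 33.3 and 53.03 at 4 and 6 h (log2 change 0.56 ± 0.22, adjusted p = 0.218), neither past the test.

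The list median of the mitosis genes at 8 to 10 h was -0.49 relative to starved cells. Spc25, a subunit of the NDC80 complex that ties microtubules to kinetochores, was the 1 of 53 to pass, with 35.9 and 39.6 at 8 and 10 h, against 19.1 and 19.9 at 4 and 6 h (log2 change 0.95 ± 0.18, adjusted p = 0.043). Bub1, a kinase of the spindle checkpoint, gave 29.1 and 34.8 at 8 and 10 h, against 14.3 and 15.7 at 4 and 6 h (log2 change 1.09 ± 0.28, adjusted p = 0.0911), and Ndc80 56.3 and 62.4 at 8 and 10 h, against 24.4 and 37.6 at 4 and 6 h (log2 change 0.97 ± 0.25, adjusted p = 0.0943). Starved cells at 0 h had averaged 51.7 for Spc25, 60.02 for Bub1 and 105 for Ndc80, higher than any of the 4 arrays. The median change of the list between the windows was 0.38, and 33 members were above both early arrays, against 27.2% of all genes. After centring each array on its median no member passed, and the median was 0.29. At 8 to 10 h 20 members were lower than at 0 h, with none higher, against 14.3% and 16.4% of all genes. Without the 4 h array Spc25 no longer passed and the median was 0.25.

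**Figure D2:**
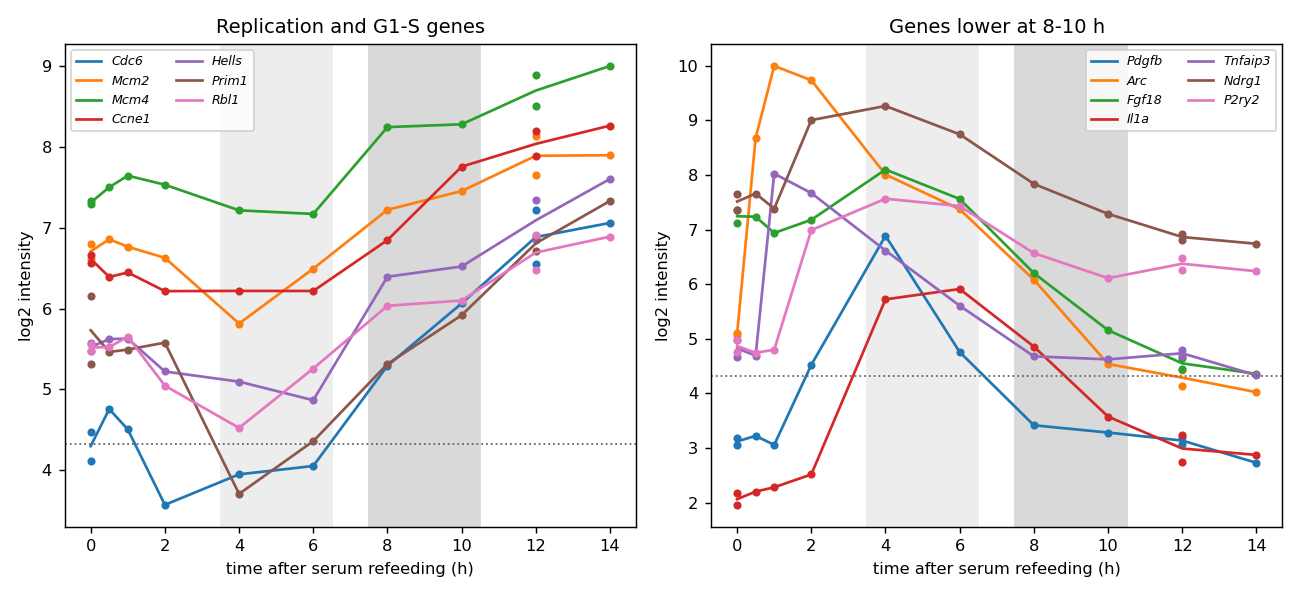
Log2 intensity of 7 replication and G1-S genes (left) and 7 genes that were lower at 8 to 10 h (right) on each array up to 14 h after refeeding, with lines through the mean at each time, the windows shaded (8 to 10 h darker) and the dotted line at an intensity of 20. The left-hand genes stand higher in the darker band than in the lighter one, Ccne1 among them although it did not pass, and those on the right stand lower.

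Other genes that rose belonged to neither replication list. Pik3r3, a regulatory subunit of phosphoinositide 3-kinase, had the largest rise of all that passed, with 51.9 and 72.8 at 8 and 10 h, against 14.7 and 24.3 at 4 and 6 h (log2 change 1.701 ± 0.24, adjusted p = 0.0213). Starved cells had averaged 106, so that both windows lay below the 0 h level. Gnai1, an inhibitory G protein alpha subunit, gave 172 and 239.9 at 8 and 10 h, against 70.2 and 89.2 at 4 and 6 h (log2 change 1.36 ± 0.20, adjusted p = 0.0213), and Prkar2b, a regulatory subunit of protein kinase A, 103 and 131 at 8 and 10 h, against 42.7 and 54.7 at 4 and 6 h (log2 change 1.26 ± 0.21, adjusted p = 0.0309). Both had 0 h levels close to those at 4 h, 68.9 for Gnai1 and 42.2 for Prkar2b. Pi15, a secreted peptidase inhibitor, gave 338 and 336 at 8 and 10 h, against 105 and 148 at 4 and 6 h (log2 change 1.43 ± 0.19, adjusted p = 0.0182). Its 8 and 10 h values were nearly equal.

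Dock4, an exchange factor for Rac, gave 97.1 and 70.1 at 8 and 10 h, against 31.2 and 40.9 at 4 and 6 h (log2 change 1.21 ± 0.18, adjusted p = 0.0213). Epha4, an ephrin receptor, gave 120.3 and 115 at 8 and 10 h, against 66.3 and 61.97 at 4 and 6 h (log2 change 0.87 ± 0.15, adjusted p = 0.0309), with 236 on average at 0 h. Meis1, a homeobox transcription factor, gave 93.9 and 116 at 8 and 10 h, against 51.04 and 50.99 at 4 and 6 h (log2 change 1.03 ± 0.17, adjusted p = 0.0273), with 116 at 0 h. The later values of Epha4 were thus below its level in starved cells, and those of Meis1 were near or below it. The other risen genes of this kind included the Golgi GTPase Rab30 (log2 change 0.92 ± 0.16, adjusted p = 0.0309), the sorting nexin Snx14 (log2 change 0.90 ± 0.18, adjusted p = 0.0477), the chromatin protein Phf6 (log2 change 0.90 ± 0.18, adjusted p = 0.0477) and Rftn2, a lipid raft protein (log2 change 1.07 ± 0.20, adjusted p = 0.0413). The remaining ones were Tmem126b, an assembly factor of respiratory complex I, Ap1s2, a subunit of a clathrin adaptor, Tbc1d8b, a Rab GTPase-activating protein, Mageh1, Brinp3, Armcx4 and 4930579G24Rik, the last a gene that the study assigned to S phase, with log2 changes of 0.77 to 1.41. Brinp3 was below 20 on all 4 arrays.

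The genes that fell were led by a growth factor for fibroblasts. Pdgfb, a chain of platelet-derived growth factor, gave 10.7 and 9.74 at 8 and 10 h, against 118 and 27.1 at 4 and 6 h (log2 change -2.47 ± 0.45, adjusted p = 0.0398), with 8.704 on average at 0 h. The 4 h value stood alone, and both later values were below 20, near the level of starved cells. Fgf18, a fibroblast growth factor, gave 73.7 and 35.7 at 8 and 10 h, against 274 and 189 at 4 and 6 h (log2 change -2.15 ± 0.32, adjusted p = 0.0213), a level 4.43 times lower. Unlike Pdgfb it was already present in starved cells, at 152, and its later level was below that (limma log2 change -1.56, adjusted p = 0.00302). Arc, an activity-induced immediate early gene of neurons that serum also induces, gave 67.7 and 23.3 at 8 and 10 h, against 257 and 166 at 4 and 6 h (log2 change -2.38 ± 0.37, adjusted p = 0.0241).

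Of the cytokine genes, Il1a, interleukin-1 alpha, gave 28.99 and 11.9 at 8 and 10 h, against 52.8 and 60.2 at 4 and 6 h (log2 change -1.60 ± 0.31, adjusted p = 0.0477), with 4.19 at 0 h. Tnfaip3, which encodes A20, an inhibitor of NF-kappaB signalling, gave 25.6 and 24.7 at 8 and 10 h, against 98.1 and 48.7 at 4 and 6 h (log2 change -1.46 ± 0.25, adjusted p = 0.0342). Both fell in the later window, and Il1a was still above its level in starved cells (limma log2 change 2.15, adjusted p = 0.00031). Csf2, a colony-stimulating factor, gave 9.56 and 4.59 at 8 and 10 h, against 151 and 21.3 at 4 and 6 h, and did not pass (limma, adjusted p = 0.0506). Its 4 h value was many times the 6 h value, and both later values were below 20, so the size of its change is not given. Lif, leukaemia inhibitory factor, gave 69.6 and 48.6 at 8 and 10 h, against 164 and 96.5 at 4 and 6 h (log2 change -1.11 ± 0.23, adjusted p = 0.0565), and the chemokine Ccl20 29.9 and 17.4 at 8 and 10 h, against 42.6 and 51.1 at 4 and 6 h (log2 change -1.04 ± 0.26, adjusted p = 0.0817). Of the 19 tested genes of the cytokine and chemokine list, which does not hold Il1a, 1 fell, Tnfaip3, and 10 were below both early arrays, against 13.2% of all genes. The list median was -0.40, and -0.26 without the 4 h array, when none passed. Beside this, 7 of the 13 macrophage and leukocyte markers tested were also below both early arrays and none passed, Cd68 giving 230.0 and 267 at 8 and 10 h, against 337 and 369 at 4 and 6 h (log2 change -0.51 ± 0.18, adjusted p = 0.186), and their part in the cytokine values was not tested.

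The promoters of Il1a and Tnfaip3 are shown because they were the 2 of the 8 fallen genes with a RefSeq window that held the AP-1 site TGACTCA (capitals), the sequence bound by Fos and Jun proteins.
Il1a promoter, chr2:129309923-129310222, minus strand: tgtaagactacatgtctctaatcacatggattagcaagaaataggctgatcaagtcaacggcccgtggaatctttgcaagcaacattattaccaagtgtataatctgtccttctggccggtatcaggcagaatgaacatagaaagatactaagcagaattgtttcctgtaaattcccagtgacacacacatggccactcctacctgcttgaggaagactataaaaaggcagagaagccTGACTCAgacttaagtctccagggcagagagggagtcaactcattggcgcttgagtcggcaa
Tnfaip3 promoter, chr10:19015361-19015660, minus strand: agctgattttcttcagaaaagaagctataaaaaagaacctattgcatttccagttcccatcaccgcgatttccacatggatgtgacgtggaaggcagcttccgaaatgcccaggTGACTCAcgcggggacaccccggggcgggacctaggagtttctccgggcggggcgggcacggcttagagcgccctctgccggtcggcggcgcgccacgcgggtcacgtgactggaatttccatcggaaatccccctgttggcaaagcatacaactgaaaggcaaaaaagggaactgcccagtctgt
The site began 12 bases before the start in Il1a and 136 before it in Tnfaip3. It stood in 20.0% of the 10 windows of fallen genes, in none of the 33 of risen genes, and in 3.74% of all windows. The E-box CACGTG stood in 40.0%, 18.2% and 10.3% of these windows and the cyclic AMP response element TGACGTCA in 0, 3.03% and 3.15%.

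Of the other genes that fell, Ndrg1 alone belonged to one of the gene lists, that of glycolysis and hypoxia. Ndrg1, a gene raised by hypoxia and growth arrest, gave 229 and 156 at 8 and 10 h, against 614 and 429 at 4 and 6 h (log2 change -1.44 ± 0.24, adjusted p = 0.0309), with 183 at 0 h. P2ry2, a receptor for extracellular nucleotides, gave 94.9 and 69.1 at 8 and 10 h, against 189 and 173 at 4 and 6 h (log2 change -1.16 ± 0.19, adjusted p = 0.0309), and Kcnn4, a calcium-activated potassium channel, 36.1 and 29.4 at 8 and 10 h, against 74.7 and 68.1 at 4 and 6 h (log2 change -1.13 ± 0.18, adjusted p = 0.0241). Nppb, natriuretic peptide B, gave 35.4 and 20.4 at 8 and 10 h, against 60.5 and 68.1 at 4 and 6 h (log2 change -1.25 ± 0.23, adjusted p = 0.0413). In each of these 4 the 10 h value was the lowest of the 4 arrays. Elfn1, a membrane protein of synapses, gave 27.1 and 17.6 at 8 and 10 h, against 53.1 and 54.7 at 4 and 6 h (log2 change -1.30 ± 0.23, adjusted p = 0.0384), and Tmem95, a sperm membrane protein, 9.62 and 8.27 at 8 and 10 h, against 23.6 and 14.6 at 4 and 6 h (log2 change -1.06 ± 0.20, adjusted p = 0.043). Tmem95 was below 20 on 3 of the 4 arrays.

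The list of feedback inhibitors and ligands of growth factor signalling, which holds neither Pdgfb nor Fgf18, had a negative median and no gene past the test. Dusp10, a phosphatase of stress-activated kinases, gave 217 and 159 at 8 and 10 h, against 373 and 249.8 at 4 and 6 h (log2 change -0.72 ± 0.21, adjusted p = 0.119). Spred2, an inhibitor of the Ras to ERK cascade, gave 214 and 184 at 8 and 10 h, against 468 and 256 at 4 and 6 h (log2 change -0.80 ± 0.23, adjusted p = 0.114), and Areg, a ligand of the EGF receptor, 35.4 and 11.3 at 8 and 10 h, against 64.8 and 41.4 at 4 and 6 h (log2 change -1.37 ± 0.38, adjusted p = 0.108). Dusp10 and Spred2 were highest at 4 h and lowest at 10 h. Of the 23 tested feedback genes none passed and 13 were below both early arrays, against 13.2% of all genes. The median was -0.42, or -0.19 without the 10 h array. With each time given its own mean, limma called 5 of the 23 lower and none higher, against 1.24% and 3.01% of all genes.

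Immediate early genes had a list median, relative to 0 h, of -0.077 at 8 to 10 h and 0.22 at 4 to 6 h. Egr1, a zinc finger factor induced within minutes of serum, gave 158 and 109 at 8 and 10 h, against 228 and 276 at 4 and 6 h (log2 change -0.93 ± 0.19, adjusted p = 0.0506). Fosb gave 18.6 and 16.9 at 8 and 10 h, against 65.2 and 14.97 at 4 and 6 h (log2 change -0.82 ± 0.46, adjusted p = 0.385) and Egr3 14.8 and 9.26 at 8 and 10 h, against 25.9 and 12.5 at 4 and 6 h (log2 change -0.62 ± 0.33, adjusted p = 0.354), with the 4 h value the highest in both, and the sign for Fosb turned without the 4 h array. Of the 25 genes of this list tested, Arc not among them, none passed. Below both early arrays were 9, against 13.2% of all genes, and the median was -0.27.

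Growth genes other than those of replication had none past the test between the windows. Of 61 genes of ribosome biogenesis and RNA polymerase I none passed, and their median change was 0.039, which became -0.054 after centring each array on its median. Set against starved cells, 43 of 61 were higher at 8 to 10 h than at 0 h and none lower, against 16.4% and 14.3% of all genes. Of 27 genes of purine, pyrimidine and one-carbon synthesis none passed and the median was 0.32. Above both early arrays were 13, against 27.2% of all genes. Mthfd1, a trifunctional enzyme of folate metabolism, gave 179.8 and 172 at 8 and 10 h, against 90.04 and 126 at 4 and 6 h (log2 change 0.72 ± 0.21, adjusted p = 0.119). Proteasome subunits (19 of 32 above both early arrays, median 0.20) and heat shock proteins and chaperones (15 of 31, median 0.23) also had no member past the test. These counts too stand against 27.2% of all genes.

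**Figure D3:**
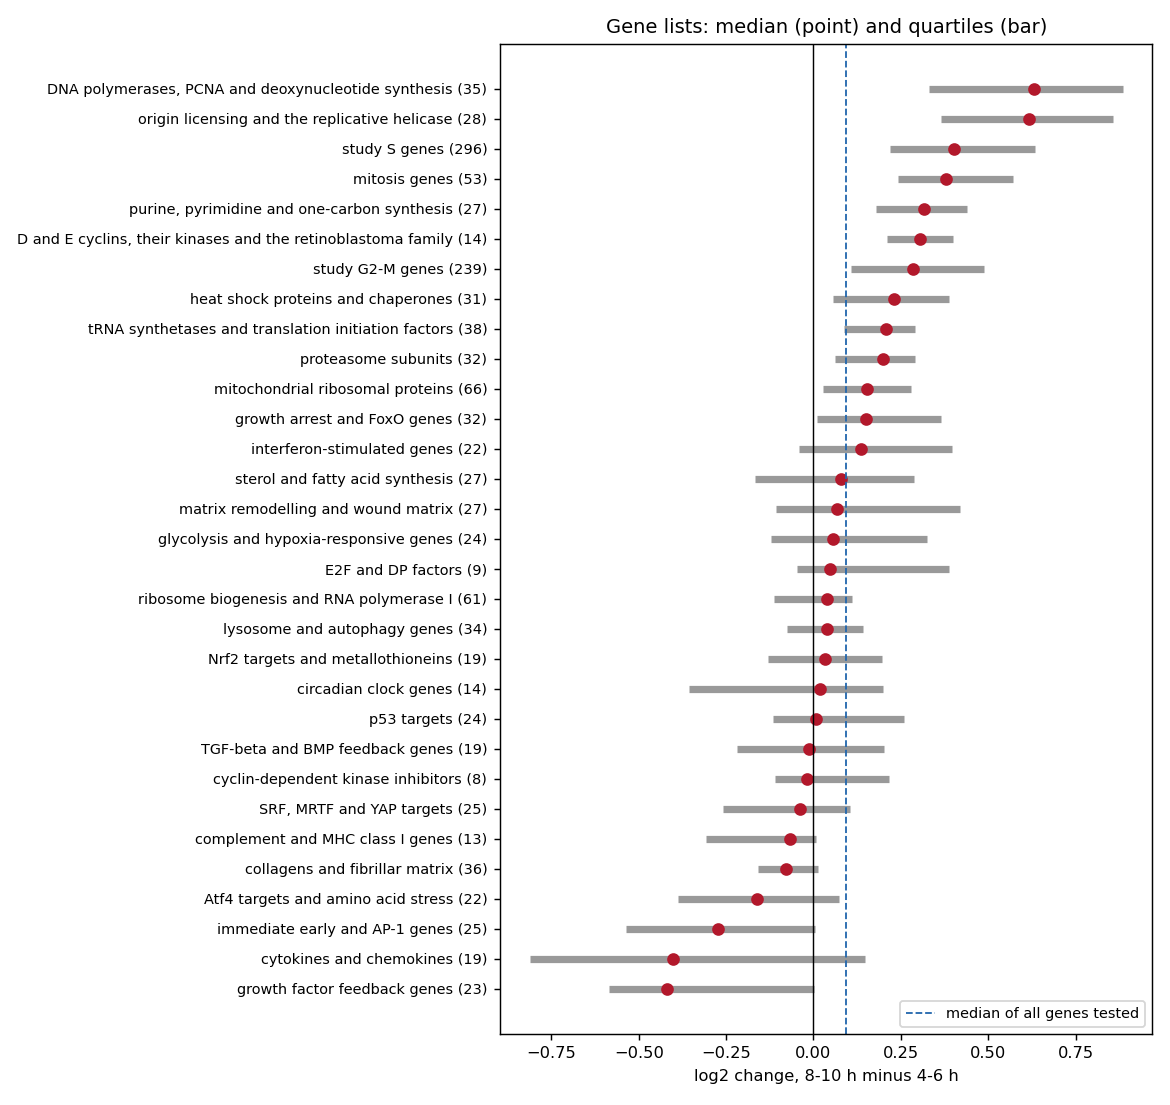
Median (point) and quartiles (bar) of the log2 change, 8 to 10 h minus 4 to 6 h, for each gene list with the number of genes tested in parentheses, beside the median of all 9967 genes (dashed line, 0.094). The lists of DNA synthesis (0.63) and of origin licensing (0.62) stand furthest to the right, and those of growth factor feedback (-0.42) and cytokines (-0.40) furthest to the left.

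Set against starved cells, 1635 genes were higher at 8 to 10 h (16.4%) and 1427 lower (14.3%) by limma, and at 4 to 6 h 1322 were higher and 1902 lower. Both counts use the same 0 h arrays, and the number higher at 8 to 10 h was 992 without the 8 h array and 1087 without replicate 1 of 0 h. The change between the windows differed from the change between 0 h and 4 to 6 h in 950 genes upward (9.53%) and 547 downward (5.49%), a test of the difference in which both steps share the 4 and 6 h arrays. Among the list members, 11 of 28 licensing genes, 15 of 35 DNA synthesis genes and 33 of 53 mitosis genes turned upward in this sense. So did 9 of 27 sterol synthesis, 8 of 22 interferon-stimulated and 9 of 32 growth arrest genes. Downward turned 14 of 19 cytokine genes and 12 of 23 feedback genes, and also 12 of 27 matrix remodelling and 16 of 61 ribosome biogenesis genes. The last 2 lists had medians of 0.067 and 0.039 between the windows, so a downward turn need not be a fall. Without the 4 h array the upward count over all genes was 408.

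Among the genes with the largest turns, Serpinb2, a protease inhibitor induced by serum, gave 1205 and 1110.5 at 8 and 10 h, against 807 and 1076 at 4 and 6 h, with 6.504 at 0 h, and its later values were near the 6 h one. Sema7a, a membrane semaphorin, gave 248 and 139 at 8 and 10 h, against 384 and 369.9 at 4 and 6 h (log2 change -1.02 ± 0.21, adjusted p = 0.0565), with 20.1 at 0 h. Aqp3, a water and glycerol channel, gave 43.1 and 18.6 at 8 and 10 h, against 69.8 and 73.3 at 4 and 6 h (log2 change -1.34 ± 0.31, adjusted p = 0.0664), with 6.01 at 0 h. Neither passed between the windows. In the upward direction were Irs1, an adaptor of the insulin receptor, with 80.1 and 83.1 at 8 and 10 h, against 27.6 and 67.6 at 4 and 6 h, with 254 at 0 h, and Lpin1, a phosphatidate phosphatase, with 26.8 and 39.7 at 8 and 10 h, against 15.1 and 21.2 at 4 and 6 h, with 113 at 0 h. Both remained below the level of starved cells at 8 to 10 h (limma adjusted p = 0.00152 for Irs1 and 7.19e-05 for Lpin1). Arhgap20, a GTPase-activating protein, gave 19.6 and 22.5 at 8 and 10 h, against 23.7 and 18.3 at 4 and 6 h, with 522 at 0 h, and stayed low.

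Compared with the step that followed, the mean of 12 and 14 h against 8 to 10 h, no gene had a mid G1 change that differed from it (limma, adjusted p under 0.05), and 426 genes upward (4.27%) and 215 downward (2.16%) did so at an unadjusted p under 0.05. Without the 6 h array 33 and 16 passed, and without the 10 h array 2 downward. In that next step 167 genes rose and 62 fell. The median of the licensing genes relative to 0 h was -0.34 at 4 h, -0.18 at 6 h, 0.25 at 8 h, 0.57 at 10 h and 1.025 at 12 h. That of the mitosis genes was -1.13, -0.73, -0.65, -0.38 and 0.14 at the same times.

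**Figure D4:**
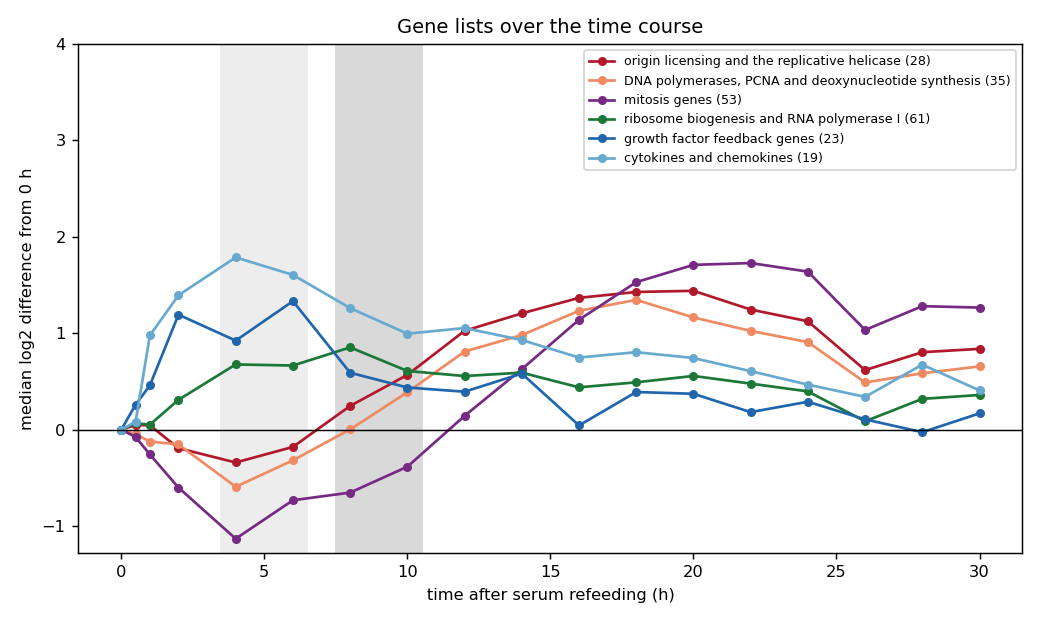
Median over the genes of 6 lists of the log2 difference from the mean of the 0 h arrays, at each time up to 30 h, with the windows shaded (8 to 10 h darker) and the number of genes tested in parentheses. The licensing and DNA synthesis lists stand above their 4 and 6 h medians at 8 and 10 h, the feedback and cytokine lists stand below theirs, and ribosome biogenesis stays near its level.

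Single steps, with each time given its own mean and single arrays assumed to vary as duplicates do, had most calls between 4 and 6 h. That step rests on the 4 h array, which stood apart from its neighbours, and the part of that array in the calls was not tested. At 6 h 253 genes (2.54%) were higher and 72 (0.722%) lower than at 4 h (limma, adjusted p under 0.05), with 1484 (14.9%) and 578 (5.8%) at an unadjusted p under 0.05. At 8 h none passed against 6 h in either direction, with 934 higher (9.37%) and 392 lower (3.93%) at an unadjusted p under 0.05, and at 10 h none was higher and 4 (0.0401%) were lower than at 8 h, with 362 (3.63%) and 641 (6.43%) at an unadjusted p under 0.05. The 4, named after their values were seen, were Areg, Kcnn3, the calcium-activated potassium channel subunit, the microfibril gene Fbn2 and Gm16685. Fbn2 gave 81.8 at 10 h, against 254 at 8 h, and Kcnn3 15.5, against 49.2. In the 35 genes that rose between the windows the median step was 0.13 from 4 to 6 h, 0.91 from 6 to 8 h and 0.18 from 8 to 10 h, and in the 11 that fell it was -0.52, -0.94 and -0.55. These medians describe genes chosen on the same arrays, and over all genes they were 0.082, 0.057 and -0.033.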

How the data were processed

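Early-passage MEF were starved for 48 h, in 0.5% serum by the protocol and 0.1% by the design text, and refed. RNA was hybridised to Affymetrix Mouse Gene 2.0 ST arrays, and the authors preprocessed them with oligo and RMA. In the deposited tables the intensity values ran between 1.74 and 6335, a linear scale in spite of a header that says log2. All fits used their log2. The 2 deposited tables held the same values. The labels call the duplicates biological, and nothing says whether the single arrays shared a culture.

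Among the 41345 probe sets, the platform annotation gave a single gene for 23521, and 84 more were named through the Entrez IDs of the supplementary gene sheet. A probe set had to reach an intensity of 20 on 2 arrays, and the brightest probe set stood for a gene, which gave 9967 genes. limma 3.58.1 in R 4.3.3 was fitted to all 24 arrays in 17 groups, with 8 and 10 h as 1 group, 4 and 6 h as 1 group and every other time on its own, which left 7 residual degrees of freedom. The adjusted p threshold was 0.05 (two-sided, Benjamini-Hochberg over all genes). The procedure was tested on simulated data. With 1 mean for each of 19 groups, 5 residual degrees of freedom remained, and single arrays were assumed to vary as duplicates do.

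Genes named were the 15 largest changes past the test in each direction with windows apart, the 4 members with the largest changes in each list, a set of G1 and S entry genes, and up to 8 genes for each turn. The other genes past the test were added after their values were seen. The members of the comparison, the gene lists (29 of this work, 2 of the study, 7 of cell type markers) and the tests were chosen with earlier results of these data known. Alternatives covered the minimum intensity, probe set choice, names, centring, quantile normalization, variance trend, a 2-fold threshold, a linear trend over 4 to 10 h, the 4 arrays alone and each array of a window or duplicate left out. Promoter sequences were from RefSeq (GRCm38.p6) and were found for 7935 of the genes tested. The number of arrays limits the precision.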

Additional observations from a re-analysis of the deposited data

How the results depend on the processing

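Genes higher and lower at 8 to 10 h numbered 35 and 11. The counts were 300 and 124 with each time given its own mean, 628 and 267 for a linear trend over 4 to 10 h, 23 and 27 after centring each array on its median, 17 and 21 after a second quantile normalization and 0 and 0 with the 4 arrays alone, where 545 and 283 passed at an unadjusted p under 0.05. With a variance trend and robust moderation 52 genes were higher and 21 lower. A 2-fold threshold on the main fit left 20 higher and 11 lower. Leaving out 1 array at a time gave 0 to 730 higher and 0 to 208 lower. Other minima, probe sets and names gave counts within 1.5 times the main ones. The mid G1 change minus the next change was past the test in 0 to 33 genes upward and 0 to 16 downward when 1 array was left out. The change minus the earlier one was so in 408 to 1410 upward and 384 to 586 downward, and the comparison of 8 to 10 h with 0 h in 992 to 1855 higher and 980 to 1622 lower, with 992 without the 8 h array and 1087 without 1 of the 0 h arrays. None of the 46 genes past the test changed sign under the settings in which it was tested. In each of them the windows were apart, so leaving out 1 array could not have turned the sign. The unchanged signs are therefore no support for the calls. Genes that did not pass changed sign in several cases. The log2 change was -0.0795 for Arhgap20, -0.00829 for Des and -0.0349 for Eng after centring on the array median, -0.0565 for Arhgap20, -0.0154 for Des and -0.0541 for Eng after a second quantile normalization, and 0.0749 for Acta1, -0.0263 for Arhgap20 and 0.0937 for Cdkn1a as the linear trend. Leaving out 1 array at a time gave log2 changes of -0.44 to 0.21 for Acta1, -0.18 to 0.20 for Arhgap20, -0.20 to 0.12 for Cdkn1a, -0.50 to 0.037 for Cdkn2b, -1.24 to 0.13 for Col14a1, -1.01 to 0.23 for Cry1, -0.24 to 0.41 for Des, -0.24 to 0.35 for Eng, -0.00113 to 0.75 for Flt1, -1.88 to 0.25 for Fosb, -0.62 to 1.67 for Hspa1b, -0.11 to 0.70 for Kdr, -0.11 to 1.02 for Mars1, -0.24 to 0.53 for Pparg, -0.14 to 2.08 for Tubb3 and -0.18 to 1.26 for Wdr46. The cause of the differences between settings was not tested. No paired analysis was possible because the 4 times compared have 1 array each and carry no replicate numbers that pair them. With 2 arrays against 2, depth of replication limits what can be called, and values below an intensity of 20 had to reach it on 2 arrays to be tested.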

Other observations

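Of 22 interferon-stimulated genes 13 were lower at 8 to 10 h than at 0 h, against 14.3% of all genes, and none of the list passed between the windows (median 0.14). Of 27 sterol and fatty acid synthesis genes 19 were lower than at 0 h, against the same 14.3%, and none passed between the windows (median 0.08). Hmgcs1, which makes the precursor of mevalonate, gave 481 and 564 at 8 and 10 h, against 369 and 367 at 4 and 6 h, with 844 at 0 h.

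Of 36 collagen and fibrillar matrix genes none passed between the windows, with 1 above and 11 below both early arrays, median -0.078. Over all genes 27.2% were above and 13.2% below. Ogn, a small leucine-rich proteoglycan, gave 891 and 745 at 8 and 10 h, against 1359 and 1092 at 4 and 6 h (log2 change -0.58 ± 0.18, adjusted p = 0.132 by limma). The metalloprotease Mmp3 gave 735 and 817 at 8 and 10 h, against 344 and 529.8 at 4 and 6 h, with 76.9 at 0 h (log2 change 0.86 ± 0.21, adjusted p = 0.0761 by limma between the windows), and Mmp13, a collagenase, 770.3 and 736 at 8 and 10 h, against 372 and 614 at 4 and 6 h, with 56.03 at 0 h. None of the 27 matrix remodelling genes passed, with 11 above and 4 below both early arrays, median 0.067.

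The other lists had no member past the test between the windows, except glycolysis and hypoxia-responsive genes, where Ndrg1 fell. Over all genes 27.2% were above and 13.2% below both early arrays, with a median of 0.094, and several of these lists were near those shares. The genes tested were 25 (1 above and 9 below both early arrays, median -0.04) for SRF, MRTF and YAP targets, 19 (4 above and 4 below both early arrays, median -0.013) for TGF-beta and BMP feedback and 14 (4 above and 2 below both early arrays, median 0.018) for the circadian clock. For tRNA synthetases and translation initiation factors they were 38 (12 above and 2 below both early arrays, median 0.21) and for mitochondrial ribosomal proteins 66 (23 above and 7 below both early arrays, median 0.15). For glycolysis and hypoxia they were 24 (8 above and 5 below both early arrays, median 0.056), for Atf4 targets 22 (2 above and 8 below both early arrays, median -0.16) and for kinase inhibitors of the cycle 8 (2 above and 1 below both early arrays, median -0.017). For growth arrest and FoxO genes they were 32 (8 above and 3 below both early arrays, median 0.15), for lysosome and autophagy genes 34 (5 above and 5 below both early arrays, median 0.038) and for complement and MHC class I genes 13 (1 above and 6 below both early arrays, median -0.068). For p53 targets they were 24 (6 above and 4 below both early arrays, median 0.0086), for Nrf2 targets and metallothioneins 19 (2 above and 3 below both early arrays, median 0.034), and for E2F and DP factors 9 (4 above and 1 below both early arrays, median 0.046).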
